A study of Mus musculus with 2 samples.

Results

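Early neutrophils that carry transcripts of Fcnb, the gene of ficolin B, were followed in total bone marrow of 1 control mouse and 1 DKO mouse. The control mouse was Ddx41 fl/fl without VavCre and with wild-type cGas, and its library is titled WT. The DKO mouse was VavCre:Ddx41 fl/fl and cGAS-/-, so that both mice carried floxed Ddx41 alleles. Both were 2 months old, and marrow was flushed from the femurs. VavCre acts in blood-forming cells in general, and not in neutrophils alone, whereas cGAS was absent from the whole animal. With 1 library per genotype (n = 1 and n = 1), and no library of either single knockout used here, the spread between mice was not measured, the effects of the 2 genes cannot be told apart, and no difference between genotypes was tested. All intervals are exact 95% intervals of counting error only, Poisson for levels, Clopper-Pearson for shares and conditional binomial for ratios.

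The cells were chosen by their own transcripts. A barcode was kept when it held at least 500 unique molecular identifiers (UMIs, each 1 captured RNA molecule) and at most 20% mitochondrial UMIs. A kept barcode was a member when hemoglobin was under 20% of its UMIs, S100a8, S100a9, Camp, Ngp and Ltf together were at least 5%, and Fcnb had at least 3 UMIs. This gave 1323 cells of 33691 kept barcodes, 754 of 19764 in the control library and 569 of 13927 in the DKO library. Levels of the chosen genes in these cells are therefore a description. Barcodes just inside the rule, with 3 Fcnb UMIs, numbered 91 (control) and 49 (DKO), and those just outside it, with 2, numbered 110 and 69. In the control library the former had 48717 counts per 1000000 UMIs (CPM) of Camp and 6164 CPM of Chil3, the latter 46641 and 6189 CPM, and in the DKO library the values were 43695 and 5818 CPM against 40743 and 5010 CPM. Cells on both sides of the Fcnb limit thus had like levels of these 2 genes. Another 129 control and 73 DKO barcodes had at least 3 Fcnb UMIs and granule transcripts under 5%, and these were not members.

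Neutrophils are made in the marrow from dividing progenitors. Proteases of the azurophil (primary) granules, such as neutrophil elastase, are made first, in promyelocytes. Proteins of the specific (secondary) granules, such as lactoferrin and cathelicidin, follow in myelocytes, which still divide, and those of the gelatinase (tertiary) granules in cells that no longer do. Ficolin B, a secreted lectin that binds sugars on microbes, and the transcription factor C/EBPε, encoded by Cebpe, belong to the early part of this sequence. DDX41 is a DEAD-box RNA helicase, and cGAS a sensor of cytosolic DNA that starts the interferon response.

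The members were compared with 4 other classes set by similar rules. Progenitors (356 control and 139 DKO cells) had at least 1% of UMIs from Mpo, Elane, Prtn3 and Ctsg and under 5% from the granule genes above. The other granule-positive cells, with under 3 Fcnb UMIs, were called immature neutrophils where Ltf was at least as frequent as Retnlg (1025 and 779) and mature neutrophils where Retnlg was more frequent (1669 and 1793). B cells, with at least 3 UMIs of Cd79a and Cd79b, served as a class that makes none of these proteins. Since the classes were made from the counts, their differences are given without a test. Control members held 15035 UMIs at the median and DKO members 16178, which was more than in immature (5954 and 6860) and mature neutrophils (3072 and 3589), and less than in progenitors (24802 and 31682). An absolute Fcnb threshold takes deeper cells more easily. No member barcode occurred in both libraries, although 80 kept barcodes did. The 2 deposited matrices also differed, since the control matrix lists all barcodes and the DKO matrix called cells only.

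The promoters of Fcnb, of Ltf and of 2 azurophil granule genes are shown as a description. Each is the 250 bases before the RefSeq start site, 5′ to 3′ on the strand of the gene, from build GRCm38.p6. Capitals mark matches, on either strand, to TTGCNNAA (a form of the site of C/EBP factors) or GAGGAAG (a form of the site of PU.1). Fcnb lies at chr2:28084879-28085128 on the minus strand, Ltf at chr9:111019042-111019291, Elane at chr10:79886062-79886311 and Prtn3 at chr10:79879417-79879666, the latter 3 on the plus strand.
Fcnb: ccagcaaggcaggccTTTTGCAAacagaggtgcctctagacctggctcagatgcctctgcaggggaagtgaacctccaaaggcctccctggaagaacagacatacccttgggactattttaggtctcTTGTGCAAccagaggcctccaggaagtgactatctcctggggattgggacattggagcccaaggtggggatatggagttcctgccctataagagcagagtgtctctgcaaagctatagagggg
Ltf: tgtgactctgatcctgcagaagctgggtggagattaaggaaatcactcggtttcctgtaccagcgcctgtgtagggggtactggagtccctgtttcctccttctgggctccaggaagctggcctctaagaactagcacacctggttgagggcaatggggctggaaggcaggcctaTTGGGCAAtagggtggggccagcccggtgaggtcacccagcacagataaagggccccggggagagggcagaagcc
Elane: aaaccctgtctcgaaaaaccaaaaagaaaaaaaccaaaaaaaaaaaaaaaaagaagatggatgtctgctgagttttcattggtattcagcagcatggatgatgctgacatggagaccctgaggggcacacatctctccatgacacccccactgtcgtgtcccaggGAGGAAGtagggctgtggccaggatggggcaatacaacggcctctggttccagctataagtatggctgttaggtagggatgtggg
Prtn3: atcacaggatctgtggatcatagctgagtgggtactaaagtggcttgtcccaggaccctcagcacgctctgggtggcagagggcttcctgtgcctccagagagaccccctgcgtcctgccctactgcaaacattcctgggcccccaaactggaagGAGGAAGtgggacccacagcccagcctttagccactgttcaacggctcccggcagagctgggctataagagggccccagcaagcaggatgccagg
The Fcnb window held 2 matches to the C/EBP letters and the Ltf window 1. The Elane and Prtn3 windows each held 1 match to the PU.1 letters and 0 to those of C/EBP. Of 5 more genes searched, Ngp held 2 matches to C/EBP, Ctsg 1 to PU.1 and Lcn2 1 to each, while Camp and Chil3 held 0 of either, so the specific granule genes were not alike in these letters. Among 32851 RefSeq promoter windows of the same length, 9.56% held the C/EBP letters and 10.6% the PU.1 letters. A match is a description of the sequence and not a binding site.

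Fcnb itself stood at 1144 CPM in the control members (interval 1125 to 1164) and 1324 CPM in the DKO members (1302 to 1348). Its level was 121 and 182 CPM in progenitors, 57.1 and 41.6 CPM in immature neutrophils, and 4.11 and 2.42 CPM in mature neutrophils. B cells gave 7.73 and 5.58 CPM. Fcnb was thus highest in the class it defined. Its levels in immature and mature neutrophils were capped by their rule of under 3 Fcnb UMIs. The B cell rule had no such limit, so these levels are not read against B cells. Per cell, the median was 11 Fcnb UMIs for control members (highest 92) and 13 for DKO members (highest 156).

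The other markers named for these cells were shared with later neutrophils. Camp, the gene of the cathelicidin precursor, had 52889 CPM in control and 52093 CPM in DKO members, beside 38956 and 34322 CPM in immature neutrophils. Chil3, a chitinase-like secreted protein, had 6629 and 5929 CPM in members and 4449 and 3658 CPM in immature neutrophils. Cebpe had 600.4 and 571.6 CPM in members, 367 and 388 CPM in immature and 56.7 and 65.5 CPM in mature neutrophils. All 3 were much lower in progenitors, where Cebpe had 122 and 140 CPM, Chil3 150.2 and 52.2 CPM and Camp 399 and 148 CPM. After thinning each cell to 2000 UMIs, Cebpe was seen in 67.2% of 750 control members and 63.5% of 562 DKO members. The shares were 47.2% and 49.5% in immature neutrophils, 20.2% and 26.8% in progenitors, and 0.476% and 0.199% in B cells.

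Besides Fcnb, the 11 genes whose level in members stood highest over both neighbouring stages were mostly genes of dividing cells. They were Neil3, a DNA glycosylase, the phosphatases Cdkn3 and Cdc25a, the chromatin proteins Hmgn2, Hist1h1e and Hist1h4d, the mitotic genes Mki67, Nusap1, Prc1 and Kif11, and Marcksl1, an actin regulator. Hmgn2 had 1877 CPM in control members, 633 CPM in progenitors and 805 CPM in immature neutrophils, and 1454, 525.5 and 408 CPM in the DKO library. Mki67, which marks cycling cells, had 401 and 584 CPM in members, 189 and 223 CPM in progenitors and 202 and 138 CPM in immature neutrophils.

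Mitotic transcripts were present in most members. At 2000 UMIs per cell, at least 2 UMIs of 24 mitosis genes were held by 70.1% of 750 control members (interval 66.7% to 73.4%) and 68.1% of 562 DKO members (64.1% to 72.0%), with 4 and 7 shallower cells left out. The share in mature neutrophils, which do not divide, was 11.2% and 7.72% and gives the background. Immature neutrophils stood at 21.2% and 10.5%. The intervals of the members' shares overlapped between libraries. Without thinning the shares were 84.4% and 80.7% in members and 20.3% and 18.2% in mature neutrophils.

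**Figure D1:**
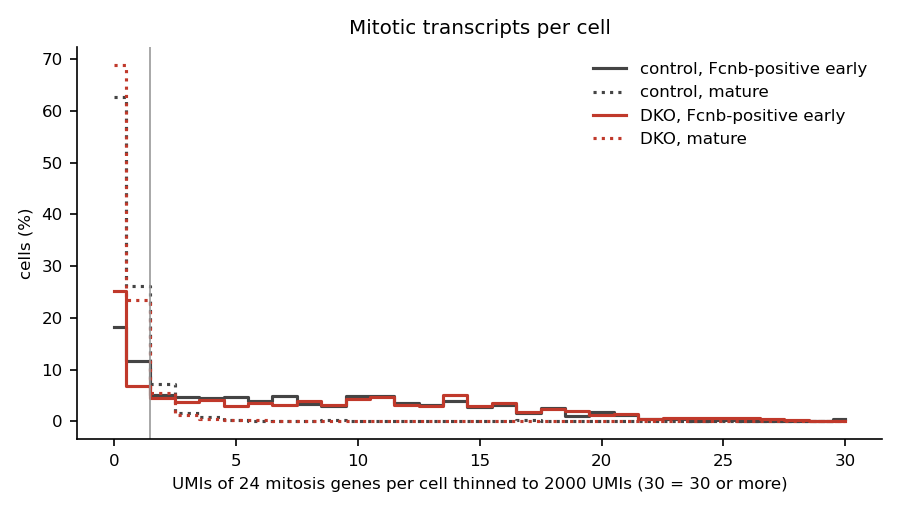
UMIs of 24 mitosis genes per cell (x axis, cells thinned to 2000 UMIs, last value 30 or more) against the share of cells in percent (y axis), for Fcnb-positive early neutrophils (solid lines) and mature neutrophils (dotted lines) of both libraries, with a vertical line at the limit of 2 UMIs. Of the members, 70.1% (control) and 68.1% (DKO) lie right of the line, and of mature neutrophils 11.2% and 7.72%.

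Members were then ordered by Ltf, the gene of lactoferrin, which accumulates as specific granules form, and divided into 3 groups of equal size, called low-Ltf, middle-Ltf and high-Ltf, at 0.594% and 0.942% of UMIs over both libraries. The groups held 275, 223 and 256 control cells and 166, 218 and 185 DKO cells. The low-Ltf group was 36.5% of control members (interval 33.0% to 40.0%) and 29.2% of DKO members (25.5% to 33.1%). The middle-Ltf group was 29.6% (26.3% to 33.0%) and 38.3% (34.3% to 42.4%), and these intervals did not overlap. Ltf chose the groups and, with 4 other genes, the members, so its own increase is no result.

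The azurophil granule genes had their highest levels in the low-Ltf group. Elane, the gene of neutrophil elastase, had 8185, 111 and 60.1 CPM in the low-Ltf, middle-Ltf and high-Ltf groups of the control members and 5054, 47.6 and 8.53 CPM in those of the DKO members. Prtn3, for proteinase 3, had 5675, 189 and 79.6 CPM and 2838, 54.1 and 18.8 CPM. Mpo, for myeloperoxidase, had 1839, 22.2 and 14.1 CPM and 1483, 13.4 and 5.12 CPM. Among the 6 genes with the largest decrease from the low-Ltf to the high-Ltf group in both libraries, Ctsg (cathepsin G), Srgn (serglycin, the proteoglycan that packs granule proteases) and Nkg7 joined these 3. Barcodes of the control library with at most 100 UMIs, which hold free RNA, had 684 CPM of Elane, 738 CPM of Prtn3 and 528 CPM of Mpo, more than the middle-Ltf and high-Ltf groups, so the levels in these 2 groups are not read as expression.

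The 6 genes with the largest increase over the groups were Plbd1, Fmnl2, St3gal5, Fpr2, Ly6g and Ifitm6. Ly6g, the surface antigen used to sort mouse neutrophils, had 70.8, 226 and 506 CPM over the control groups and 47.4, 204 and 454 CPM over the DKO groups. Fpr2, a formyl peptide receptor, had 21.7, 86.6 and 178 CPM and 17.9, 73.9 and 194 CPM. Cebpe stayed between 536 and 623 CPM in all 6 groups. Fcnb was highest in the low-Ltf group, at 1464 CPM (control) and 1964 CPM (DKO), and lowest in the high-Ltf group, at 770.4 and 711 CPM.

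Transcripts of the cell cycle were fewer in the high-Ltf group. Cells with at least 2 mitotic UMIs were 91.1%, 81.2% and 38.3% of the control groups and 90%, 81.1% and 34.1% of the DKO groups. For 24 genes of DNA replication, the shares were 86.7%, 55.2% and 26.95% (control) and 83.8%, 56.2% and 29.7% (DKO). Within each group, the intervals of both libraries overlapped.

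Within the low-Ltf group, 107 control and 71 DKO members had Ltf at no more than 0.1% of UMIs, a limit chosen after values were seen. They were 14.2% (interval 11.8% to 16.9%) and 12.5% (9.88% to 15.5%) of members. Elane reached 16846 and 9824 CPM in them, beside 9429 and 9768 CPM in progenitors, and Camp 31114 and 41302.5 CPM. These levels are a description, since Ltf chose these cells and Camp took part in choosing the members. Elane is a gene of promyelocytes, so the cells are called here by the Fcnb rule and not by the myelocyte stage.

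**Figure D2:**
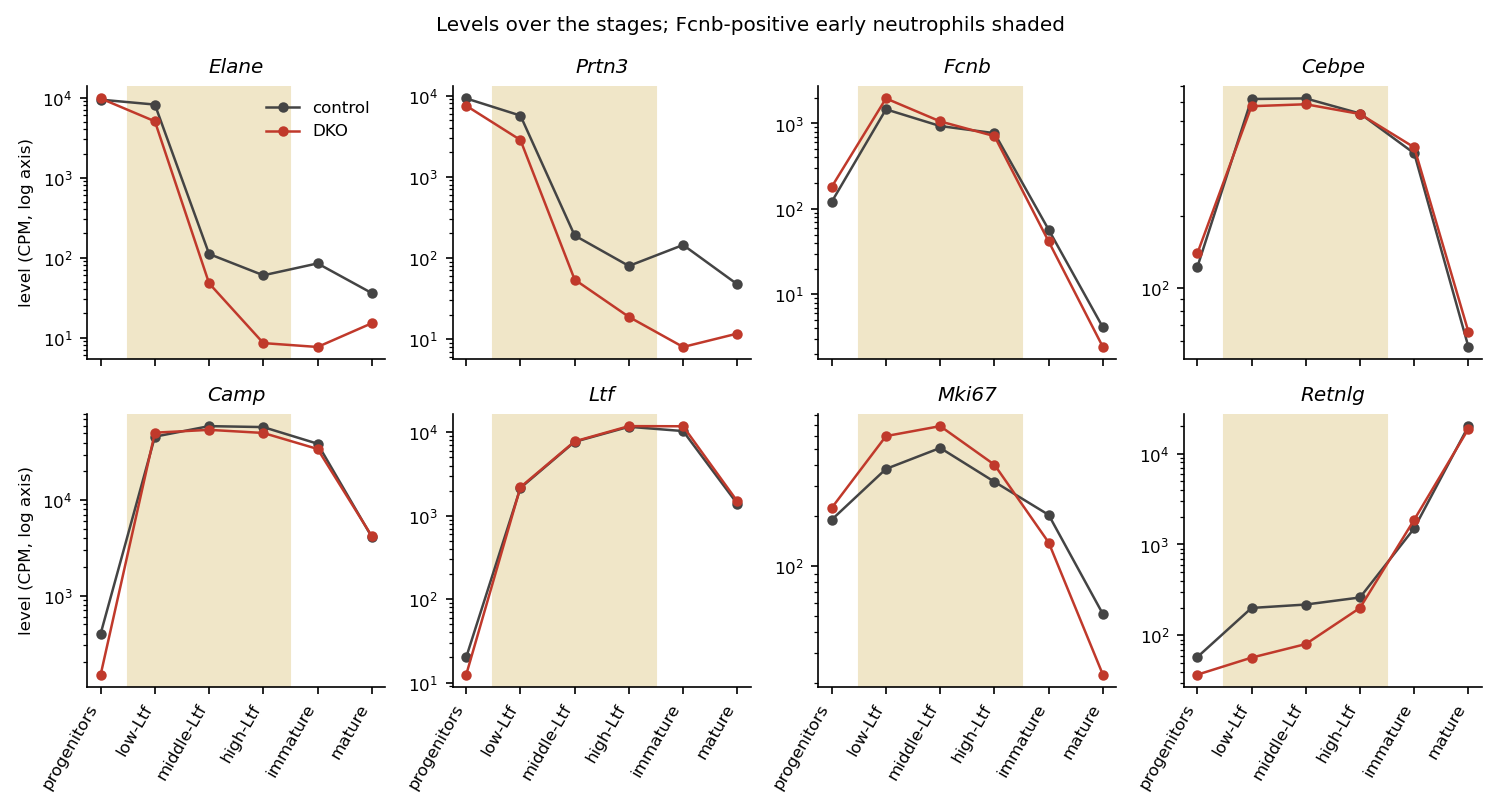
Levels of 8 genes in CPM (y axes, log scale) over progenitors, the low-Ltf, middle-Ltf and high-Ltf groups of Fcnb-positive early neutrophils (shaded), immature and mature neutrophils, with 1 point for each library and stage. Elane falls from 8185 to 60.1 CPM over the shaded groups of the control library while Cebpe stays between 538 and 623 CPM.

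Of all kept barcodes, the members were 3.82% for the control (interval 3.55% to 4.09%) and 4.09% for the DKO mouse (3.76% to 4.43%), and these intervals overlapped. The 2 matrices were cut differently before deposit, and the part of this in the shares was not tested. Of barcodes with at least 5% granule transcripts, they were 21.6% of 3497 (20.2% to 23.0%) and 18.0% of 3168 (16.6% to 19.3%). The latter intervals did not overlap, but they cover counting error within 1 library each. Mature neutrophils, which are in the same denominator, were 47.7% and 56.6% of these barcodes and 8.44% and 12.9% of all kept barcodes.

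Ddx41, the gene targeted in the DKO mouse, had 19.1 CPM in control members (226 UMIs, interval 16.6 to 21.7) and 10.3 CPM in DKO members (99 UMIs, 8.34 to 12.5). This was a log2 ratio of −0.89 (interval −1.25 to −0.55), lower in the DKO library, as in progenitors (−1.29), immature (−0.68) and mature neutrophils (−1.33). Cgas had 24.7 CPM (293 UMIs) and 24.04 CPM (232 UMIs) in members, a log2 ratio of −0.04 (−0.29 to 0.21), beside −0.41 in progenitors, −1.33 in immature and −1.68 in mature neutrophils. Reads here come from the 3′ ends of transcripts, and whether these lie within the deleted parts is not given in the sources used here, so neither level checks the genotype.

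Of 5592 genes with at least 20 CPM in either library, 747 (13.4%) were at least 1.5-fold higher in DKO members and 236 (4.22%) at least 1.5-fold lower. The median log2 ratio over all these genes was 0.21, and with this set to 0 the counts were 149 higher (2.66%) and 624 lower (11.2%). A list is therefore read against that median, and its counts with the median set to 0 are given second where they differ. The ratio also moved with gene span. Genes under 5 kb had a median of −0.24 in members and genes over 200 kb one of 0.56, and the medians of the same spans were −0.26 and 0.34 in B cells. This run with span was present in all 5 classes examined, and its part in each result below was not tested, but values centred on the median of the same gene-span decile are given beside the list medians in members.

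**Figure D3:**
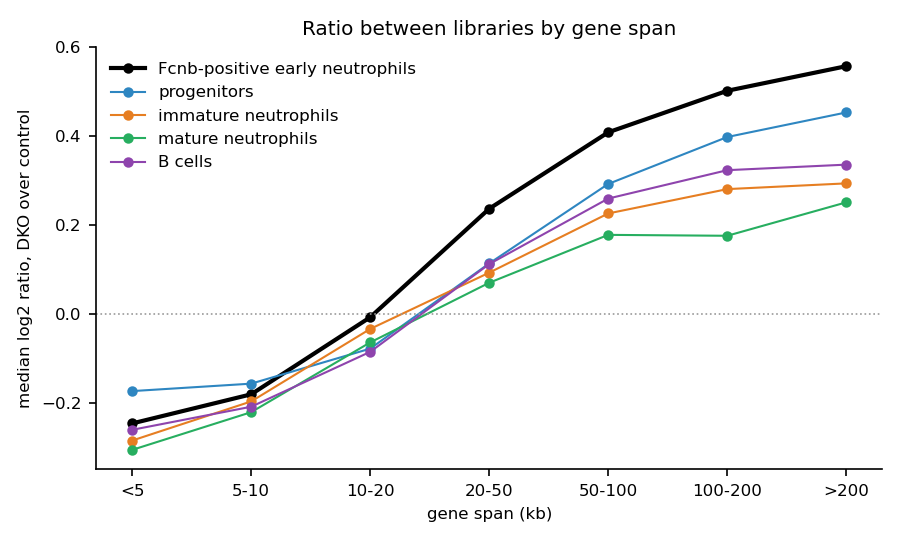
Median log2 ratio of DKO over control (y axis) for genes in 7 ranges of gene span in kb (x axis), 1 line per class of cells. In Fcnb-positive early neutrophils the median goes from −0.24 for genes under 5 kb to 0.56 for genes over 200 kb, and each other class also goes from below to above 0.

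The azurophil granule genes were lower in DKO members. Of 10 measured, 6 were at least 1.5-fold lower and 0 higher (7 and 0 with the median of all genes set to 0), with a list median of −0.64 (−0.60 centred on span). Elane had 3917 and 1976 CPM, a log2 ratio of −0.99 (−1.01 to −0.96). Prtn3 had 2757 and 1123 CPM (−1.30, −1.33 to −1.26), and Ctsg 561 and 168 CPM (−1.74, −1.82 to −1.66). Hexa, a subunit of a lysosomal hexosaminidase in the same list, was at 0.20. The low-Ltf group, where these genes are high, was 36.5% of control and 29.2% of DKO members with overlapping intervals. Within the low-Ltf, middle-Ltf and high-Ltf groups the list median was −0.45, −0.56 and −0.60. In the latter 2 groups Elane, Prtn3 and Mpo are not read as expression, as stated above. Balanced over the Ltf groups, Elane was at −1.55, Prtn3 at −1.62 and Ctsg at −1.47. Relative to all genes, the list was then at −0.79, against −0.86 over all members. These values include the middle-Ltf and high-Ltf groups, and the part of the groups' shares was not tested beyond this. Within the members with at most 0.1% Ltf the log2 ratios were −0.78 for Elane, −1.05 for Prtn3 and −1.59 for Ctsg. In progenitors the same 3 genes were at 0.05, −0.30 and −0.30, in cells that had been chosen by these transcripts. The list median was −0.05 in progenitors, −1.55 in immature and −0.18 in mature neutrophils and −0.71 in B cells. In immature neutrophils Elane lay 5.53 (control) and 7.98 (DKO) log2 units under members, below the free RNA given above. Of the Elane UMIs of the B cell class, 91.3% (control) and 91.7% (DKO) came from barcodes that also met the progenitor rule. The values −1.55 and −0.71 are therefore not read as decreases in these classes. B cells outside the progenitor rule, which do not use Elane, held 81.3 and 35.1 CPM of it, below the overall level in members, and the part of such stray transcripts in the members' ratios was not tested.

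The specific granule genes differed less. Of 11 measured, 1 was at least 1.5-fold higher and 0 lower (1 and 2 with the all-gene median at 0), with a median of −0.02 (0.20 centred on span). Camp, Ngp and Ltf, which took part in the choice of cells, were at −0.02, −0.05 and 0.13. Lcn2, for lipocalin 2, was at −0.41 (11118 and 8368 CPM) and Hp, for haptoglobin, at −0.56 (1081 and 733 CPM). The exception was Olfm4, for olfactomedin 4, with 92.6 CPM (interval 87.2 to 98.2) and 195 CPM (186 to 204), a log2 ratio of 1.07. Its transcripts were held by 6.37% of control and 12.8% of DKO members. Olfm4 was also higher in DKO immature (1.31) and mature neutrophils (0.74).

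Of the gelatinase granule list, 1 of 8 measured genes was past 1.5-fold on either scale, Retnlg, which was lower at a log2 ratio of −1.13 (221 and 101 CPM), and Padi4, Mmp9 and Itgam were at 0.54, 0.40 and 0.38. The level of Retnlg in members was under the 657 CPM of the free RNA. The NADPH oxidase genes, which make the oxidative burst, included Cyba at −0.38, Cybb at 0.29 and Ncf1 at 0.30, with 0 of 6 past 1.5-fold (1 lower with the all-gene median at 0). Of 10 late neutrophil genes, 1 was higher and 0 lower (median 0.08, or 0.21 centred on span), and 0 were past 1.5-fold with the all-gene median at 0.

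Of 16 myeloid transcription factors, 2 were higher and 2 lower (1 and 3 with the all-gene median at 0), with a median of 0.23 (0.09 centred on span). Runx1, a core factor of blood formation, had 282 and 492 CPM (0.80, interval 0.74 to 0.87) and Klf5 61.5 and 104 CPM (0.76). Centred on span, Runx1 was at 0.27 and no longer past 1.5-fold. Irf8 and Zeb2, both used by monocytes and dendritic cells, were at −1.71 and −0.92. Without the 22 control and 4 DKO members that held monocyte transcripts, described below, Irf8 was at −0.98 and Zeb2 at 0.069. Cebpe, Spi1 and Gfi1 were at −0.07, −0.14 and 0.14. Among 13 receptors of cytokines and homing signals, 5 were higher and 0 lower, and with the all-gene median at 0 Kit alone was. The median was 0.38 (0.15 centred on span). They included Kit, the stem cell factor receptor, at 1.07 (20.99 and 44.1 CPM), Cxcr4, which holds neutrophils in the marrow, at 0.77 (91.5 and 156 CPM), and Il6ra at 0.70. Centred on span, Kit was at 0.59, Cxcr4 at 1.01 and Il6ra at 0.36. Kit was seen in 22.8% of control and 43.6% of DKO members.

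None of the 24 mitosis genes and none of the 22 replication genes was past 1.5-fold, with medians of 0.21 and 0.06 (0.03 and 0.0069 centred on span). With the all-gene median at 0, 1 replication gene was lower. Within the mitosis list, Mki67 (0.54) and Kif23 (0.52) were highest, and Ube2c (−0.34, 553 and 438 CPM) was lowest. In immature neutrophils the mitosis list was at −0.75. Of 8 genes of the DNA damage response and 7 targets of p53, 0 were higher. Bax, which promotes apoptosis, was at −1.01 (70.8 and 35.02 CPM), and Cdkn1a, the main p53-induced cell cycle inhibitor, was under the limit at 4.72 and 6.53 CPM. Of 8 immediate response genes, 1 was lower, Jund at −0.91 (2 with the all-gene median at 0), and of 3 measured nucleic acid sensors 0 were past 1.5-fold.

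Genes of the secretory pathway, which folds and exports granule proteins, had a median of −0.64 (−0.44 centred on span), with 11 of 20 lower and 0 higher on either scale. Sdf2l1, an endoplasmic reticulum chaperone partner, was at −1.70 (81.0 and 24.9 CPM), the disulfide isomerase Pdia6 at −1.34 (119 and 47.1 CPM) and the translocon-associated Ssr2 at −1.04. The stress-responsive chaperone Hspa5 was at −0.22 and Xbp1 at 0.11. The list was at −0.60 in the low-Ltf, −0.23 in the middle-Ltf and −0.40 in the high-Ltf group. Outside the members, it was at −0.12 in progenitors, −0.42 in immature and −0.57 in mature neutrophils and −0.20 in B cells.

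Ribosomal protein genes were at −0.27 over 81 genes, 4 of them past 1.5-fold lower (22 with the all-gene median at 0), and at −0.06 once centred on span. Of 30 ribosome biogenesis genes, 12 were measured, with a median of −0.41 (−0.39 centred on span). Of these 12, 4 were lower (7 with the all-gene median at 0), among them Fbl (−0.85), for the nucleolar methyltransferase fibrillarin, and Npm1 (−0.66), for nucleophosmin. In progenitors, immature and mature neutrophils and B cells this list was at −0.12, −0.80, −0.74 and −0.16. Ribosomal protein genes were at 0.07, −0.45, −0.54 and −0.20 in the same classes, so neither decrease was particular to members. Of 16 measured DEAD-box and DEAH-box helicases, 0 were higher and 1 was lower (3 with the all-gene median at 0), and the median was −0.0062 (−0.05 centred on span).

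Of 11 measured interferon-stimulated genes, 6 were lower and 0 higher on either scale, with a median of −0.65 (−0.77 centred on span). The decrease was not particular to members. The list was at −0.27 in progenitors, −0.996 in immature and −1.11 in mature neutrophils and −0.42 in B cells. The list lay 0.86 below the median of all genes, and 0.33 below it once the barcodes with the highest doublet scores were left out. Ifitm3, an antiviral membrane protein, had 459 CPM (interval 447 to 472) and 170 CPM (162 to 178), a log2 ratio of −1.44, and was at −1.35 to −1.27 in progenitors and immature neutrophils. Isg15, a ubiquitin-like modifier, had 27.1 and 5.60 CPM, Bst2 24.03 and 4.87 CPM and Ifi27l2a 37.5 and 8.18 CPM. Isg15 was found in 12.5% of control and 2.99% of DKO members. The free RNA of the control library held 183 CPM of Isg15, 109.5 CPM of Bst2 and 152 CPM of Ifi27l2a, more than the members, and its part was not tested. Without the highest doublet scores the 4 genes were at −1.42 (Ifitm3), −2.09 (Isg15), −1.77 (Bst2) and −1.53 (Ifi27l2a). Rnf213 was at 0.30.

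**Figure D4:**
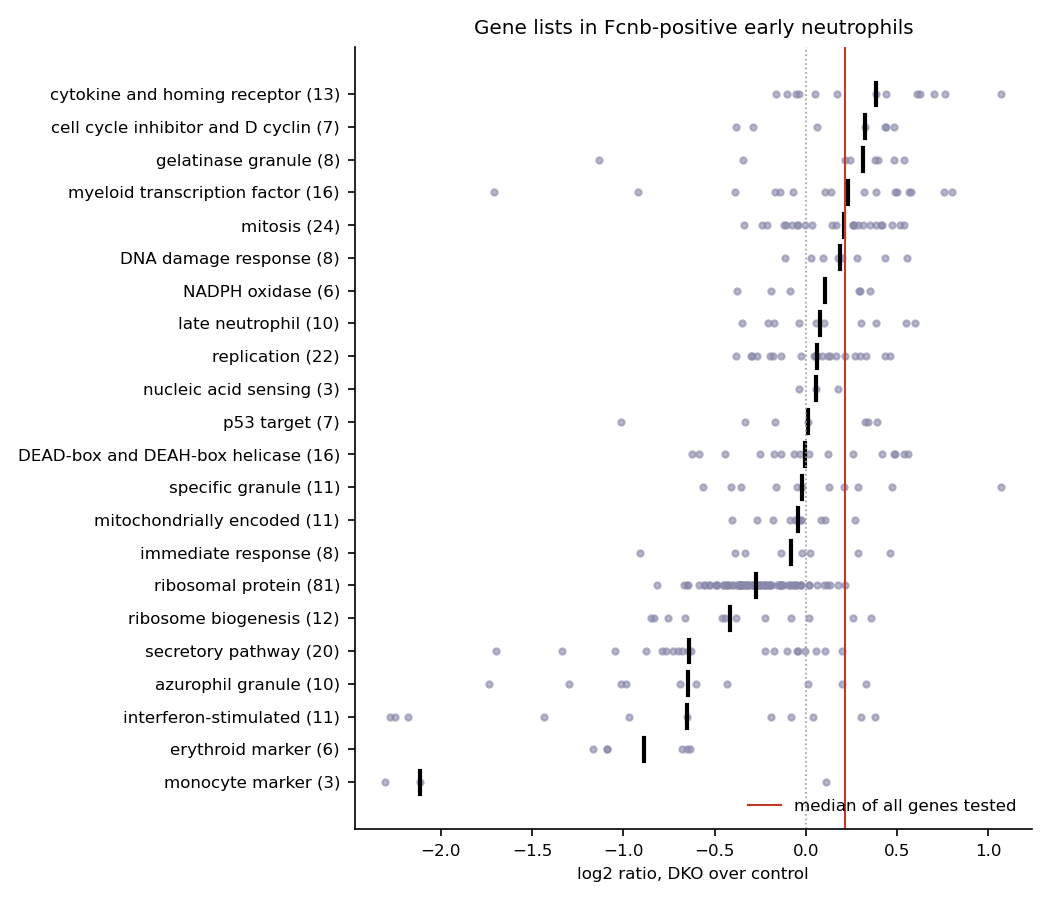
Log2 ratio of DKO over control (x axis) in Fcnb-positive early neutrophils for the measured genes of each list (points, number of genes in brackets), with the median of the list as a black bar and that of all genes tested, 0.21, as a red line. Monocyte, erythroid, interferon-stimulated, azurophil granule and secretory pathway genes have the lowest medians, from −2.11 to −0.64.

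Erythroid transcripts, and those of 4 monocyte genes without Ly6c2, were more frequent in the control members, and B cell transcripts were at like frequency. Summed over all 5 monocyte markers, Ly6c2 included, the level was 980 CPM in control and 993 CPM in DKO members. Of these 5 markers, 3 were measured. At least 5 UMIs of the monocyte genes Ccr2, F13a1, Csf1r and Ms4a6c were held by 22 control members (2.92%) and 4 DKO members (0.703%), and these cells had 86.9% and 72.6% of all such UMIs in members. Their median depth was 22326 and 25984 UMIs, above that of all members. Of the 5 monocyte markers, F13a1 and Ms4a6c were at −2.11 and −2.30, with F13a1 at −0.92 once the 22 and 4 cells were left out, and the others included Ly6c2, which early neutrophils also express, at 0.11. Hemoglobin was at least 2% of UMIs in 54 control members (7.16%) and 16 DKO members (2.81%), and all 6 erythroid markers were lower, by a median of −0.88 (−0.79 centred on span). Their summed level was 13645 CPM in control and 7002 CPM in DKO members. B cell transcripts (at least 3 UMIs of Cd79a and Cd79b) were found in 21 control members (2.79%) and 14 DKO members (2.46%), with 296 and 277 such UMIs in all members. The T or NK cell, megakaryocyte, basophil, eosinophil and stromal lists had 0 genes at 20 CPM.

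The 10 largest decreases among genes of at least 100 CPM included Hist1h2ap, Gm10076, Ctsg, Ifitm3, Pdia6, Prtn3, Prdx2, Hbb-bt and Nme2. Hist1h2ap, a histone H2A gene, was at −2.31 (1730 and 348 CPM). It was also lower in the other 4 classes, and its value is uncertain, since histone genes have near-identical copies and how reads were assigned among them was not examined. The 10 largest increases were Parp8, Fmnl2, Olfm4, Alcam, Mapk4, Magi3, Aff2, Lrmda, Dnah8 and Tet3. Parp8, an ADP-ribosyltransferase, was at 1.40 (71.4 and 189 CPM, interval 1.29 to 1.52), and was also higher in progenitors (0.55), immature (1.07) and mature neutrophils (0.84). Fmnl2, a formin that builds actin filaments, was at 1.25 (160 and 380 CPM), and Tet3, which oxidizes methylcytosine, at 0.93. Of these 10 genes, 9 span over 90 kb, and Olfm4 spans 39.1 kb. Centred on span, Parp8 (0.87), Olfm4 (0.82) and Fmnl2 (0.72) remained past 1.5-fold, and the other 7 did not, with values from 0.40 (Dnah8) to 0.54 (Alcam).

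**Figure D5:**
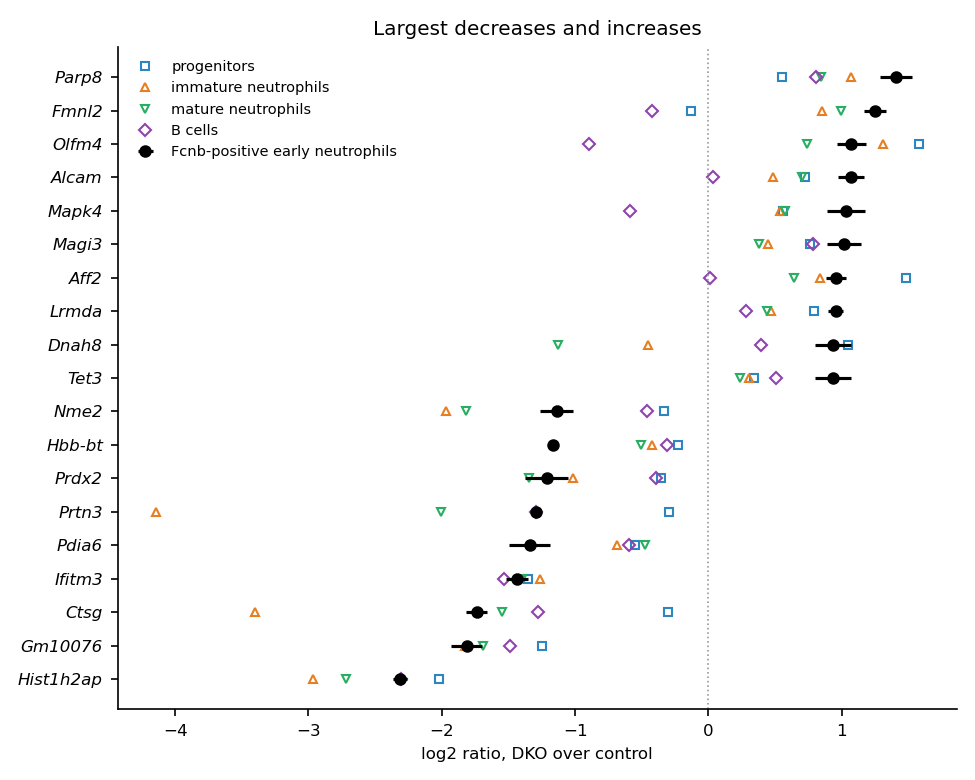
Log2 ratio of DKO over control (x axis) for 9 of the 10 largest decreases and the 10 largest increases in Fcnb-positive early neutrophils (black points with 95% counting intervals, some smaller than the point), beside progenitors, immature and mature neutrophils and B cells (open symbols). Hist1h2ap is at −2.31 in members and below 0 in each other class, while Dnah8 is at 0.94 in members and −0.45 in immature neutrophils.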

How the data were processed

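Bone marrow of 1 control and 1 DKO mouse was profiled with Chromium Single Cell 3′ v3 chemistry. The authors deposited raw UMI counts per gene and barcode, made with Cell Ranger 7.1.0 per the file headers on build mm10 per the labels. Whether intronic reads were counted is not given in the sources used here. The matrices hold 32285 genes, with 135693452 UMIs in the control library (1518290 barcodes listed) and 117725934 UMIs in the DKO library (14142 barcodes). Members held 11862557 and 9652111 UMIs.

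Counts were summed over the cells of a class and library, divided by the total and given as CPM. The log2 ratio of DKO over control had 1 count added. A gene was tested at 20 CPM in either library and called at 1.5-fold. Intervals cover counting error only, because PCR and droplet effects and the spread between mice are not included. Cells were thinned without replacement. Doublets were scored with Scrublet (scanpy 1.11.5), whose automatic threshold marked 0 control and 198 DKO barcodes, so none were removed and the top 5% of scores were left out as an alternative (65 and 41 members). Free RNA was read from control barcodes with at most 100 UMIs (4073556 UMIs). Gene spans came from GENCODE M21. Of the B cell barcodes, 35 control and 13 DKO also met the progenitor rule and stayed in both classes. On simulated members (5133 genes), the direction of 1.5-fold and 2-fold changes was recovered in 100% of 100 genes each, and 95.0% of intervals covered the true ratio. The simulated counts had Poisson error alone, which the intervals assume. This checks the calculation and cannot show how the intervals hold for the spread between cells, droplets or mice.

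Members and gene lists were chosen with earlier results of these data known. Named were the targeted, rule and marker genes, per list the 4 largest ratios and 2 highest levels, the 10 largest increases and decreases from 100 CPM, the 12 genes highest over the neighbouring stages and the 6 with the largest change over the Ltf groups in each direction. Other named genes, among them list members given for contrast (Hexa, Cebpe, Spi1, Gfi1, Hspa5, Xbp1, Ube2c, Rnf213, Cdkn1a), were chosen after their values were seen. Single values of some listed genes are not reported here, though counts and medians include them. The following 3 alternatives were added after the data were seen (hemoglobin under 2%, members with monocyte transcripts left out, ratios centred on gene span). Python 3.11.15, numpy 2.4.6, scipy 1.17.1, pandas 2.3.3 and matplotlib 3.10.9 were used.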

Additional observations from a re-analysis of the deposited data

Results flagged for a closer look

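Dnah8, a dynein heavy chain gene among the 10 largest increases in members (62.04 control and 119 DKO CPM, log2 ratio 0.94, interval 0.80 to 1.07), went the other way in immature neutrophils, with 53.7 and 39.2 CPM and a log2 ratio of −0.45. Centred on gene span, Dnah8 in members was at 0.40, under the 1.5-fold limit. The difference between both classes was not tested, because each class had 1 library per genotype.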

How the results depend on the processing

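No paired analysis was possible because each genotype had 1 library. The ratios of 31 genes kept their direction, though not always their side of the 1.5-fold limit, in 464 of 465 alternatives, the exception being Zeb2 without members holding monocyte transcripts (0.069). This count includes the alternatives from 50 CPM and from 1 UMI, which cannot change the ratio of a single gene. Most of the 31 genes were named for their large ratios. Ddx41 and Cgas stayed within their intervals under all alternatives. Genes at least 1.5-fold higher and lower numbered 234 and 488 with median-of-ratios scaling, 446 and 129 from 50 CPM, and 3518 and 3875 from 1 UMI, where most genes hold few counts. The higher genes numbered 175 once ratios were centred on gene span, which sets the median of all genes to 0.00 by construction, and the lower genes 143 when balanced over the Ltf groups. List medians are given next relative to all genes. Centred on span, azurophil granule genes were at −0.60, secretory pathway at −0.44 and ribosomal protein at −0.065, and the specific granule list turned from −0.24 to 0.20. From 1 UMI the azurophil, specific granule, mitosis, ribosomal protein and interferon-stimulated lists were at −0.79, −0.12, 0.11, −0.37 and −1.51. Balanced over the Ltf groups, the azurophil, specific granule, secretory and ribosomal protein lists were at −0.79, −0.27, −0.70 and −0.42. The azurophil value includes the middle-Ltf and high-Ltf groups, where Elane, Prtn3 and Mpo are not read as expression. Without the highest Scrublet scores, the azurophil, specific granule, ribosomal protein and interferon-stimulated lists were at −1.002, −0.29, −0.53 and −0.33. Without members holding monocyte transcripts, the azurophil and specific granule lists were at −0.94 and −0.28. The specific granule list was at −0.27 with granule transcripts of at least 10% and with equal weight per member. The interferon-stimulated list was at −0.25 from 50 CPM, −0.61 with equal weights, −0.67 with Fcnb at 0.05% of UMIs and −0.63 with hemoglobin under 2%. The cause of these shifts was not tested. Members were 4.37% and 4.58% of kept control and DKO barcodes with at least 2 Fcnb UMIs, 3.06% and 3.403% with 5, and 3.05% and 3.29% with Fcnb at 0.05% of UMIs. In the control library they were 4.18% from 1000 UMIs and 3.54% with hemoglobin under 2%. Mitotic transcripts were found in 60.8% and 59.9% of members at 1000 UMIs, 77.9% and 75.05% at 4000 UMIs, and 65.1% and 63.7% with at least 3 UMIs, so these shares depend on depth. Levels over stages kept their direction in cells thinned to 2000 UMIs for Elane, Chil3, Cebpe and Retnlg.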
